A study of Mus musculus with 2 samples.

Results

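The adipogenic regulators *Pparg*, *Cebpa*, *Cebpb*, *Cebpd*, *Zfp423*, *Ebf1*, *Ebf2* and *Klf15* and the lipid uptake genes *Lpl* and *Cd36* were examined in fibro/adipogenic progenitors (FAPs), the interstitial mesenchymal cells of skeletal muscle that can form fat cells and fibroblasts. The 10 genes were taken by name, as their rows in the count tables of 31053 genes. They and the gene lists used below were chosen with earlier results of these data known. Counts of them beside the shares of all genes are therefore descriptions only. All 10 had UMIs (unique molecular identifiers, each standing for 1 captured transcript) in both libraries. FAPs of 3-week-old C57BL/6 mice were sorted from limb muscle as cells that excluded 7AAD, lacked CD45, CD31 and Vcam1 and carried Sca1. There was 1 library of genotype Bap1f/f, labelled Bap1WT, and 1 of genotype Prx1-Cre;Bap1f/f from a littermate, labelled Bap1ΔMPC, and how many animals each library held is not given in the sources used here. Both carry floxed alleles of *Bap1*, a deubiquitinase that acts on histone H2A, and only the latter carries the Cre, whose Prx1 driver is active in limb bud mesenchyme and therefore not in FAPs alone. With 1 library per genotype, genotype, animal and library cannot be told apart, no test between genotypes was possible, and every interval below is a 95% interval that covers counting error only.

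Fat cell formation runs through a cascade of transcription factors. *Cebpb* and *Cebpd* respond early to hormones and stress signals and lead to the induction of *Pparg*, the nuclear receptor that directs the fat cell program, and of *Cebpa*, which maintains *Pparg* expression and insulin sensitivity. *Klf15*, a zinc finger factor induced by glucocorticoids, acts on the same step, whereas *Zfp423*, *Ebf1* and *Ebf2* mark or commit precursor cells, *Ebf2* being known for brown and beige fat. *Lpl* encodes the secreted lipase that releases fatty acids from lipoproteins at the capillary wall, and *Cd36* encodes a membrane receptor that takes them up. In muscle, FAPs are the main source of the fat that accumulates between fibers in disease, and *Lpl* is also high in many fibroblasts that hold no fat.

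The tables held 4103 cells for the library labelled Bap1WT and 4378 for that labelled Bap1ΔMPC, with 51015705 and 49540066 UMIs and medians of 12232 and 11017.5 UMIs per cell. Only 5 cell barcodes were present in both. Levels are given as CPM, the UMIs of a gene summed over cells per 1000000 UMIs of those cells. Each transcript gives 1 UMI from its 3′ end, so levels of different genes can be set side by side without a correction for length. Cells with at least 25 UMIs per 10000 from *Pi16*, *Sema3c*, *Anxa3* and *Efemp1* together are called Dpp4-type, and cells below that score with at least 5 UMIs of *Cxcl14* per 10000 are called Cxcl14-type. Dpp4-type cells numbered 1050 (25.6%) and 1251 (28.6%), Cxcl14-type cells 569 (13.9%) and 1020 (23.3%), and cells of neither type 2484 and 2107. Within each library, genes outside the rule followed the names. *Dpp4* stood at 298 CPM in Dpp4-type against 28.1 in Cxcl14-type cells of the library labelled Bap1WT, and at 268 against 9.59 in the other, whereas *Col15a1* stood at 155 against 1916 and at 216 against 1961. Within Cxcl14-type cells, however, such genes differed between the libraries. *Smoc2* stood at 2737 and 842 CPM and *Sparcl1* at 582 and 160 in those labelled Bap1WT and Bap1ΔMPC. *Hsd11b1* stood at 177 and 62.5 CPM and *Crispld2* at 174 and 72.5. *Has1*, a gene of the Dpp4-type, stood there at 112 and 289 CPM and *Sbsn*, another, at 11.6 and 40.9, whereas *Dpp4* was lower in the second. Cells under this name were therefore not alike in the libraries. *Bap1* itself had 17.6 and 21.6 CPM (897 and 1072 UMIs). Tags from the 3′ end do not tell whether a floxed exon was present, so this count does not check the genotype.

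Promoters of *Pparg*, *Cebpa* and *Klf15*, members that turned out higher in Cxcl14-type than in Dpp4-type cells, are shown first, as the DNA that adjoins their starts. Whether these windows take part in that difference was not tested. RefSeq starts on GRCm38.p6 were found for 7 of the 10 genes, with 11 starts in all. The sequences are the 250 bases that precede a start, 5′ to 3′ on the strand of the gene, and capitals mark matches to the C/EBP motif TTGCNNAA on either strand. *Pparg* has starts on the plus strand of chromosome 6 preceded by chr6:115360894-115361143 (start 1) and chr6:115421816-115422065 (start 3). *Cebpa* is preceded by chr7:35119043-35119292 (plus strand) and *Klf15* by chr6:90462326-90462575 (plus strand). The upstream and downstream starts of *Pparg* give different first exons, and the downstream isoform is the one best known from fat cells, but counts from the 3′ end do not tell them apart.
Pparg start 1: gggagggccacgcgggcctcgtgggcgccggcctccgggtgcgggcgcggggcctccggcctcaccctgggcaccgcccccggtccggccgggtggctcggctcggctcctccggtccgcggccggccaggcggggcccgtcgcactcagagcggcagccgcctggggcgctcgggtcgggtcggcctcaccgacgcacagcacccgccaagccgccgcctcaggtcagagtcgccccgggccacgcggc
Pparg start 3: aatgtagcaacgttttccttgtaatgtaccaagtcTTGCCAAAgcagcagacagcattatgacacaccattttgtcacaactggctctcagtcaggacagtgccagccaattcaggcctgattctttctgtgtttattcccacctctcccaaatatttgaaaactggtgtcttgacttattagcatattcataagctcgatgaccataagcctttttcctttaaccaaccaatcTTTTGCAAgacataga
Cebpa: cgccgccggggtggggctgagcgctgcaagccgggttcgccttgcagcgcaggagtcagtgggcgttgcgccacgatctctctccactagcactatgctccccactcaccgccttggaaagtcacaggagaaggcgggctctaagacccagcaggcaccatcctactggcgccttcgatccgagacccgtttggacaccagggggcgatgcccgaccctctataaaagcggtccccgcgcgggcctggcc
Klf15: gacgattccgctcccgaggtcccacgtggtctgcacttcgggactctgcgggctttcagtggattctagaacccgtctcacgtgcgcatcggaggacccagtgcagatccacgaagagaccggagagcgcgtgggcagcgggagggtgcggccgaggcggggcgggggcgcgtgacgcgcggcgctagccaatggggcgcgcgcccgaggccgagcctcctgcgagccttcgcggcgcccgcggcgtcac
The C/EBP motif was present at 2 sites upstream of *Pparg* start 3, beginning at positions -215 and -16, where -1 is the base just before the start, in a window of 40.8% GC. The window of *Pparg* start 1 had 82.4% GC and no match. Among the other starts, 1 start of *Zfp423* had a match at -131, and 9 of the 11 starts had none. The same letters occurred in 9.57% of 32536 promoters of the same length. Searches on both strands for a glucocorticoid receptor motif (GNACANNNTGTNC, in 0.390% of all promoters), an EBF motif (TCCCNNGGGA, in 0.787%) and a PPAR motif (AGGTCANAGGTCA, in 0.0338%) had no match in the 11 windows. These matches describe letters only.

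The 10 genes spanned more than 3 orders of magnitude in level in the library labelled Bap1WT. The span was smaller in that labelled Bap1ΔMPC, from 1296 to 1.96 CPM. In the cells labelled Bap1WT, *Cebpd* was the most abundant at 1224 CPM, followed by *Lpl* at 949, *Ebf1* at 463, *Cebpb* at 389 and *Ebf2* at 199. The others were scarce: *Cebpa* at 21.0, *Zfp423* at 20.4, *Klf15* at 9.45, *Pparg* at 1.98 and *Cd36* at 0.255 CPM. The order was identical in the cells labelled Bap1ΔMPC. Intervals of neighbours in that order overlapped for 1 pair, *Cebpa* and *Zfp423* in the library labelled Bap1WT. Summed over the 10 genes, the level was 3277 CPM in the library labelled Bap1WT and 3532 in that labelled Bap1ΔMPC, of which *Cebpd* made up 37.4% and 36.7% and *Lpl* 29.0% and 23.6%. The order depended on cell type. *Lpl* led in Cxcl14-type cells of both libraries, and in Dpp4-type cells it stood after *Cebpd* and *Ebf1*. *Pparg* was at rank 9 in all, Dpp4-type and Cxcl14-type cells of both libraries except in the Cxcl14-type cells labelled Bap1ΔMPC, where it was at rank 7 with 22.1 CPM, with an interval that overlapped that of *Klf15* at 18.0.

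**Figure D1:**
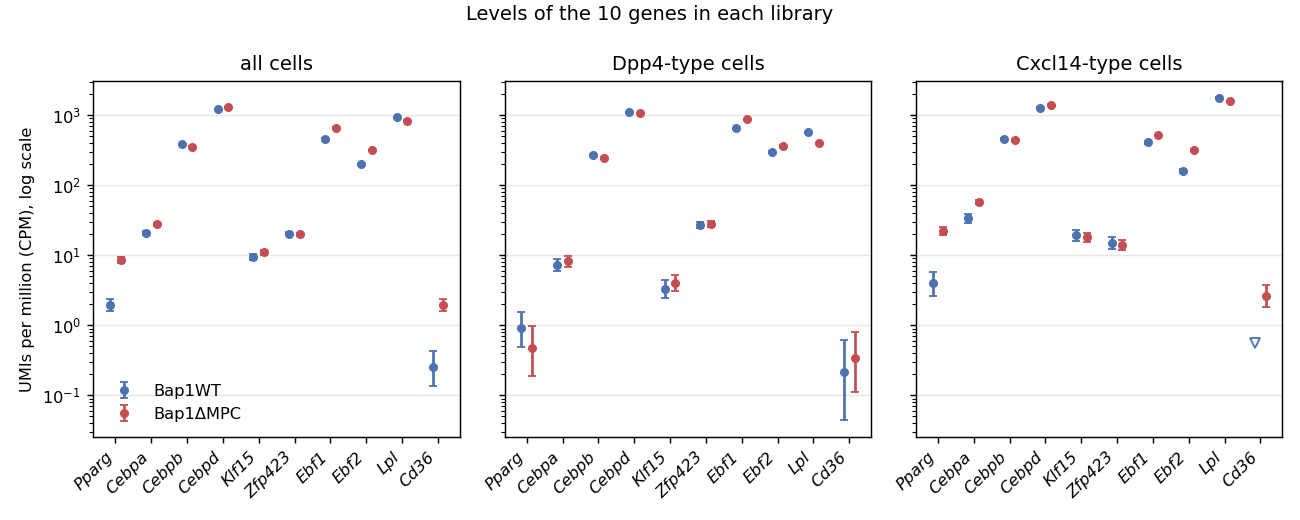
Level of each of the 10 genes in CPM (log axis) in all cells, Dpp4-type cells and Cxcl14-type cells of the library labelled Bap1WT (blue) and the library labelled Bap1ΔMPC (red). Points are summed UMIs of 1 library, bars are exact Poisson 95% intervals for counting error, and the open triangle is the upper bound where no UMI was counted. *Pparg* in Cxcl14-type cells stands at 4.03 and 22.1 CPM, whereas in Dpp4-type cells its intervals overlap.

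Between the libraries, size alone could be described. A gene was counted when it differed by more than 2-fold in CPM, among genes with a mean ln(1 + UMIs per 10000) over 0.01 and at least 20 UMIs in the groups compared. Of the 10 members, 9 met that minimum, and *Cd36* was too scarce for it. Over all cells, 1 of the 9 (*Pparg*) was higher by more than 2-fold in the library labelled Bap1ΔMPC, beside 3.45% of 11761 genes, and 0 were lower, beside 3.18%. In Dpp4-type cells 0 of 9 passed that size in either direction, beside 3.43% higher and 3.63% lower of 11599 genes. In Cxcl14-type cells 2 of 9 (*Pparg* and *Ebf2*) were higher, beside 5.67% of 11649 genes, and 0 were lower, beside 4.30%. The median log2 ratio of the 9 was 0.22 over all cells, beside 0.097 for all 11761 genes, and 0.037 and 0.15 in the types, beside 0.073 and 0.068. Most members therefore lay close to the body of all genes, and the departures rested on a few of them.

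**Figure D2:**
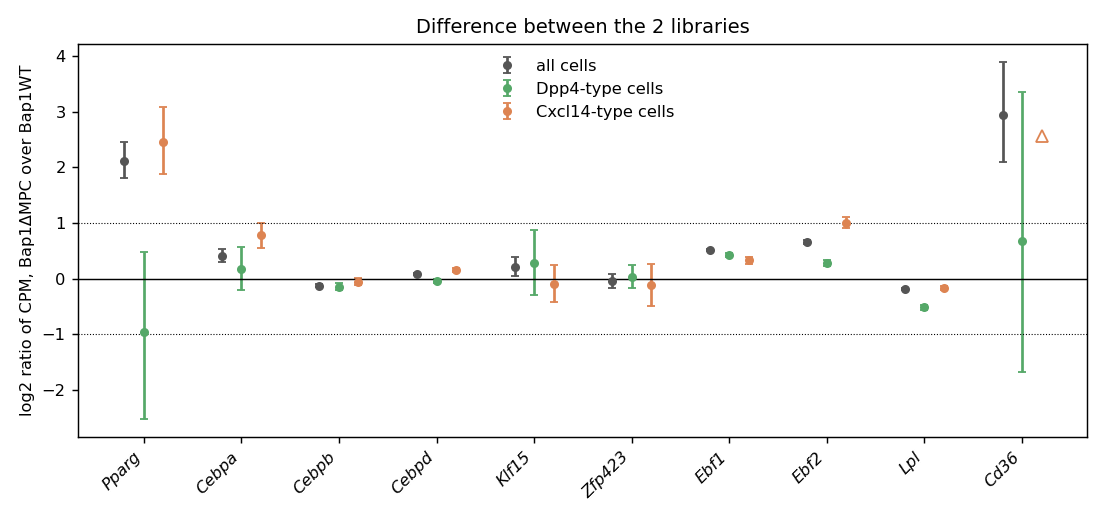
Log2 ratio of CPM, library labelled Bap1ΔMPC over library labelled Bap1WT, for each gene in all cells (grey), Dpp4-type cells (green) and Cxcl14-type cells (orange), with exact 95% intervals for counting error. Dotted lines mark 2-fold. The open triangle is the value for *Cd36* in Cxcl14-type cells when its 0 UMIs in those labelled Bap1WT are set at 3. The counting interval of that ratio, not drawn, begins lower, at 2.19. *Pparg* lies at 2.12 in all cells and 2.46 in Cxcl14-type cells, whereas the interval of *Pparg* in Dpp4-type cells crosses 0.

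*Pparg* was scarce in both libraries and had the largest ratio of the 9 genes. Over all cells it had 101 UMIs (1.98 CPM, 1.61 to 2.41) in the library labelled Bap1WT and 427 UMIs (8.62 CPM, 7.82 to 9.48) in that labelled Bap1ΔMPC, a log2 ratio of 2.12 (1.81 to 2.45), or 4.35-fold. The size of that ratio was at percentile 98.9 of the 11761 genes. A UMI of *Pparg* was seen in 2.10% and 5.78% of cells, and in 0.904% and 3.21% of cells thinned at random to 5000 UMIs each. In Cxcl14-type cells the counts were 27 and 249 UMIs, or 4.03 and 22.1 CPM, with a log2 ratio of 2.46 (1.88 to 3.09). In cells of neither type the level was 2.02 and 7.27 CPM. In Dpp4-type cells only 13 and 7 UMIs were counted, or 0.921 and 0.474 CPM, with a log2 ratio of -0.96 (-2.52 to 0.47). The libraries thus differed in *Pparg* outside the Dpp4-type cells, and within them a difference in either direction was not detectable at this depth. With the Dpp4-type score set at 15 instead of 25, that last ratio became 0.22, and with TMM factors it was -1.03 and passed 2-fold. Cxcl14-type cells were also a larger share of the library labelled Bap1ΔMPC (23.3% against 13.9%), and the part of this in the all-cell ratio was not tested. Within that type *Cxcl14* itself stood at 1446 and 2807 CPM. Values within a type therefore do not hold the mix of cells equal, and the part of that mix was not tested either. No cell type that should lack *Pparg* was present, so a background share could not be measured.

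The added UMIs of *Pparg* were unevenly spread over cells. In the library labelled Bap1WT, 75 cells had 1 UMI of *Pparg*, 8 had 2 and 3 had 3 or more, with a maximum of 4. In the library labelled Bap1ΔMPC, 171 cells had 1, 41 had 2 and 41 had 3 or more, and the latter held 174 of the 427 UMIs, with a maximum of 10. Cells with a high count were therefore a larger part of the signal in the second library.

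*Cebpa*, the partner of *Pparg* in the late step of the cascade, was higher by less than 2-fold. Over all cells it had 1069 and 1378 UMIs, or 21.0 and 27.8 CPM, with a log2 ratio of 0.41 (0.29 to 0.53). A UMI was found in 20.0% and 20.1% of cells, and in 10.2% and 10.8% of thinned cells. In Cxcl14-type cells the level was 33.6 and 57.6 CPM (225 and 649 UMIs), with a log2 ratio of 0.78 (0.56 to 1.01), and the share of thinned cells with a UMI was 14.8% and 20.1%, with intervals that overlapped narrowly (upper bound 18.1%, lower bound 17.6%). Dpp4-type cells had 7.30 and 8.26 CPM, with a log2 ratio of 0.18 (-0.21 to 0.57). The interval excluded 0 in Cxcl14-type cells and included it in Dpp4-type cells; the difference between the types was not tested. After thinning, 27 cells labelled Bap1ΔMPC had 3 or more UMIs of *Cebpa*, against 1 cell labelled Bap1WT.

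The early factors *Cebpb* and *Cebpd*, in contrast, were abundant and nearly level. *Cebpb* had 389 and 356 CPM over all cells, with a log2 ratio of -0.13 (-0.16 to -0.10), and was detected in 90.9% and 88.0% of cells. Within types its log2 ratio was -0.15 in Dpp4-type cells (272 and 245 CPM) and -0.057 in Cxcl14-type cells (461 and 443 CPM). *Cebpd* had 1224 and 1296 CPM over all cells, with a log2 ratio of 0.08 that became -0.015 when libraries were scaled by TMM or by median-of-ratios size factors. In Dpp4-type cells *Cebpd* stood at 1105 and 1071 CPM and in Cxcl14-type cells at 1266 and 1404 CPM. The all-cell ratio of *Cebpd* is smaller than the shift of 0.097 in the median of all genes that these factors remove. *Cebpd* was present in 98.1% of cells of each library, and its maximum in a thinned cell was 57 and 84 UMIs.

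*Klf15* was scarce and did not differ between the libraries beyond counting error within either type. It had 482 and 544 UMIs, or 9.45 and 11.0 CPM over all cells, with a log2 ratio of 0.22 (0.04 to 0.40). Dpp4-type cells had 3.33 and 4.06 CPM, with an interval of -0.29 to 0.87 for the log2 ratio. Cxcl14-type cells had 19.2 and 18.0 CPM, with an interval of -0.42 to 0.24. A difference of *Klf15* between the libraries was therefore not detectable within a type at this depth.

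Among the factors of precursor cells, *Ebf1* and *Ebf2* were higher in the library labelled Bap1ΔMPC in every group of cells, and *Zfp423* was not. *Ebf1*, an early B cell factor that also acts in fat and stromal precursors, had 463 and 663 CPM, with a log2 ratio of 0.52 (0.49 to 0.54). Its log2 ratio was 0.43 in Dpp4-type cells (647 and 869 CPM) and 0.33 in Cxcl14-type cells (409 and 514 CPM). *Ebf2* had 199 and 314 CPM over all cells, with a log2 ratio of 0.66 (0.63 to 0.70). In Cxcl14-type cells it had 160 and 321 CPM, with a log2 ratio of 1.01 (0.91 to 1.11), and in Dpp4-type cells 300.2 and 364 CPM, with a log2 ratio of 0.28 (0.22 to 0.34). The value in Cxcl14-type cells sat at the 2-fold limit, and it was 0.96 with TMM and 0.97 after thinning. *Ebf2* was also found in more cells after thinning, 72.2% against 56.8%, and its 90th percentile was 4 UMIs against 2. *Zfp423*, a zinc finger factor of preadipocyte commitment, had 1042 and 983 UMIs, or 20.4 and 19.8 CPM, with a log2 ratio of -0.042 (-0.17 to 0.09). Its intervals included 0 in both types, where it stood at 27.1 and 27.8 CPM (Dpp4-type) and at 15.2 and 14.0 CPM (Cxcl14-type).

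*Lpl*, the lipase, was lower in the library labelled Bap1ΔMPC in CPM and in the share of cells that had it. Over all cells it stood at 949 and 834 CPM, with a log2 ratio of -0.19 (-0.21 to -0.17). In Dpp4-type cells it stood at 570 and 397 CPM, with a log2 ratio of -0.52 (-0.57 to -0.47), and in Cxcl14-type cells at 1775 and 1583 CPM, with a log2 ratio of -0.17 (-0.20 to -0.13). A UMI of *Lpl* was found in 96.7% and 87.6% of all cells. At an equal 5000 UMIs per cell, the share with no *Lpl* was 10.5% and 21.7% over all cells, 15.1% and 28.1% in Dpp4-type cells, 1.79% and 7.27% in Cxcl14-type cells, and 10.6% and 24.9% in cells of neither type. The upper end ran the other way in Cxcl14-type cells, where 3.40% and 6.14% had more than 20 UMIs of *Lpl*. The intervals of these 2 shares overlapped narrowly (upper bound 5.26%, lower bound 4.72%). The median over all thinned cells was 4 and 2 UMIs, whereas the maximum was 32 and 92. Accordingly, the 5% of cells with the most *Lpl* held 18.6% of its UMIs in the library labelled Bap1WT and 25.4% in the other, and the variance was 4.54 and 7.35 times the mean. *Lpl* was thus more unequal among cells of the library labelled Bap1ΔMPC than its CPM alone shows.

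**Figure D3:**
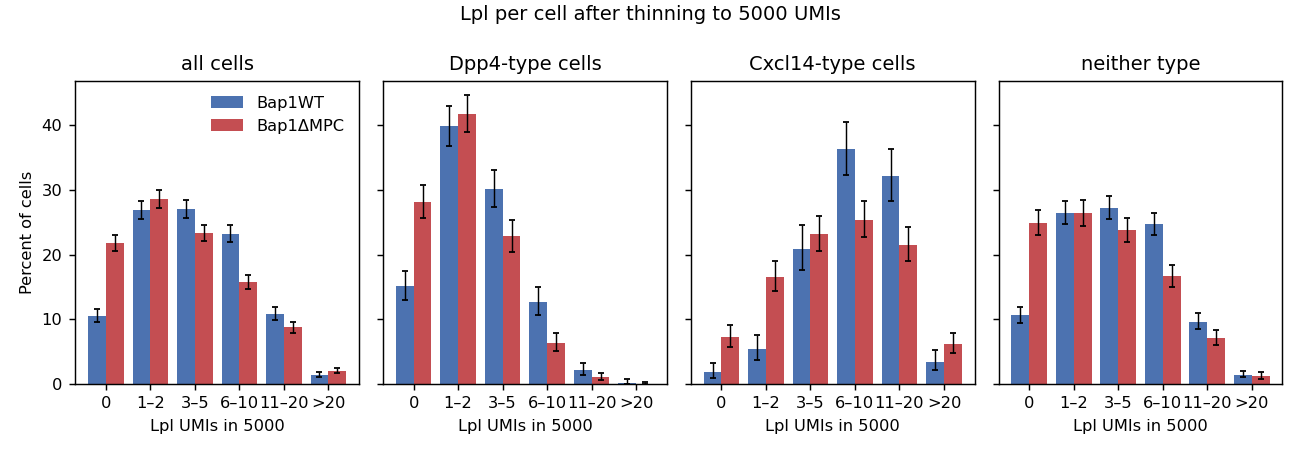
Share of cells (percent) by their number of *Lpl* UMIs after thinning to 5000 UMIs per cell, in all cells, Dpp4-type cells, Cxcl14-type cells and cells of neither type, for the libraries labelled Bap1WT (blue) and Bap1ΔMPC (red). Bars are exact 95% binomial intervals for counting error. The share with no *Lpl* is higher in the red bars of each panel. In Cxcl14-type cells the class above 20 UMIs is 3.40% in blue and 6.14% in red, with intervals that overlap.

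*Cd36*, the fatty acid receptor, was near the limit of detection. It had 13 UMIs in 12 cells labelled Bap1WT (0.255 CPM, 0.136 to 0.436) and 97 UMIs in 46 cells labelled Bap1ΔMPC (1.96 CPM, 1.59 to 2.39), a log2 ratio of 2.94 (2.10 to 3.90). A single cell held 27 of the 97 UMIs and the next held 11. Without the former the level was 1.41 CPM. Cells with 3 or more UMIs of *Cd36* numbered 0 and 6, and these 6 held 52 UMIs. In Cxcl14-type cells *Cd36* had 0 UMIs in 569 cells and 30 UMIs in 1020 cells. With the 0 set at the 0.448 CPM that 3 UMIs would give, its level of 2.66 CPM was 5.95-fold higher (log2 ratio 2.57). The counting interval of the ratio began lower, at 4.55-fold. That log2 ratio was 0.65 with cells thinned to 5000 UMIs, 0.85 with *Cxcl14* of at least 10 per 10000 and 1.44 without cells with fat cell transcripts. Dpp4-type cells had 3 and 5 UMIs, too few for a comparison. The ratio of *Cd36* thus rested on few cells of 1 library.

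By this count the members, and all genes, differed more often between the 2 cell types than between the libraries. Of the 9 genes with enough UMIs, 4 (*Pparg*, *Cebpa*, *Klf15* and *Lpl*) were higher by more than 2-fold in Cxcl14-type than in Dpp4-type cells labelled Bap1WT, beside 9.18% of 11608 genes, and 0 were lower, beside 6.51%. The same 4 were higher in the cells labelled Bap1ΔMPC, beside 10.0% of 11715 genes, and 0 were lower, beside 5.68%. The 0 became 1 in each library with TMM factors, where *Ebf2* just passed 2-fold lower in the library labelled Bap1WT and *Zfp423* did in the other (-1.06). Set against every cell below the Dpp4-type threshold, Dpp4-type cells differed less in *Lpl*. Its log2 ratio was then 0.94, under 2-fold, in the library labelled Bap1WT and 1.36 in the other. The log2 ratio of Cxcl14-type over Dpp4-type cells was 2.20 and 2.80 for *Cebpa*, 2.53 and 2.15 for *Klf15*, and 1.64 and 1.99 for *Lpl*. For *Pparg* it was 2.13 (1.12 to 3.21) in the library labelled Bap1WT, from 13 and 27 UMIs, and 5.54 (4.48 to 6.87) in that labelled Bap1ΔMPC, from 7 and 249 UMIs. *Cebpb* was higher by less, at 0.76 and 0.85, and *Cebpd* by 0.20 and 0.39. The precursor factors were lower in Cxcl14-type cells, with log2 ratios of -0.83 and -0.99 for *Zfp423*, -0.66 and -0.76 for *Ebf1*, and -0.91 and -0.18 for *Ebf2*. The genes of the late cascade and the lipase thus stood on the side of the Cxcl14-type cells in both libraries, and the precursor factors on the side of the Dpp4-type cells. Median depth differed between the types (13635 and 11606 UMIs per cell in the library labelled Bap1WT, 11661 and 10713.5 in the other). With all cells thinned to 5000 UMIs, *Cebpa*, *Klf15* and *Lpl* still passed 2-fold in both libraries and *Pparg* in that labelled Bap1ΔMPC, whereas *Pparg* in the library labelled Bap1WT then had under 20 UMIs.

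Levels were also followed along the score that defines the Dpp4-type cells. From the lowest Dpp4-type score (below 2 UMIs per 10000) to the highest (100 and above), *Lpl* went from 1214 to 439 CPM in the library labelled Bap1WT and from 1192 to 242 CPM in that labelled Bap1ΔMPC. *Cebpa* went from 35.5 to 4.20 and from 52.1 to 2.19 CPM, *Klf15* from 15.8 to 0.525 and from 14.8 to 5.48 (1 and 5 UMIs in the highest bin), and *Cebpb* from 460 to 235 and from 462 to 222. *Ebf1* ran the other way, from 360 to 669 and from 544 to 1122 CPM, as did *Zfp423*, from 11.3 to 27.3 and from 12.1 to 41.7. *Ebf2* went from 129 to 371 CPM in the cells labelled Bap1WT but only from 288 to 373 CPM in those labelled Bap1ΔMPC, so that the libraries differed most at a low score and were level at the highest. *Pparg* in the library labelled Bap1ΔMPC had 16.0, 12.1, 10.6 and 4.88 CPM in the 4 bins below 25, then 0.778, 0.163 and 0 CPM above it. In the library labelled Bap1WT it had 2.66, 2.32, 3.23 and 1.10 CPM in the bins below 25. Above 25 it had 1.52, 0.575 and 0.525 CPM there, from only 8, 4 and 1 UMIs. Along *Cxcl14*, in cells below a Dpp4-type score of 25, *Lpl* went from 865 to 2444 CPM and from 651 to 1812 CPM, and *Klf15* from 9.18 to 34.4 and from 11.2 to 24.7 CPM, between cells with less than 1 and at least 40 UMIs of *Cxcl14* per 10000. *Pparg* labelled Bap1ΔMPC had 4.99 CPM in the lowest *Cxcl14* bin and 32.9 CPM (26.9 to 39.9) between 20 and 40. In the highest bin, at 40 and above, it was lower again, at 19.2 CPM (13.9 to 26.0). Bins are cells of 1 library and no test was made of their trend.

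**Figure D4:**
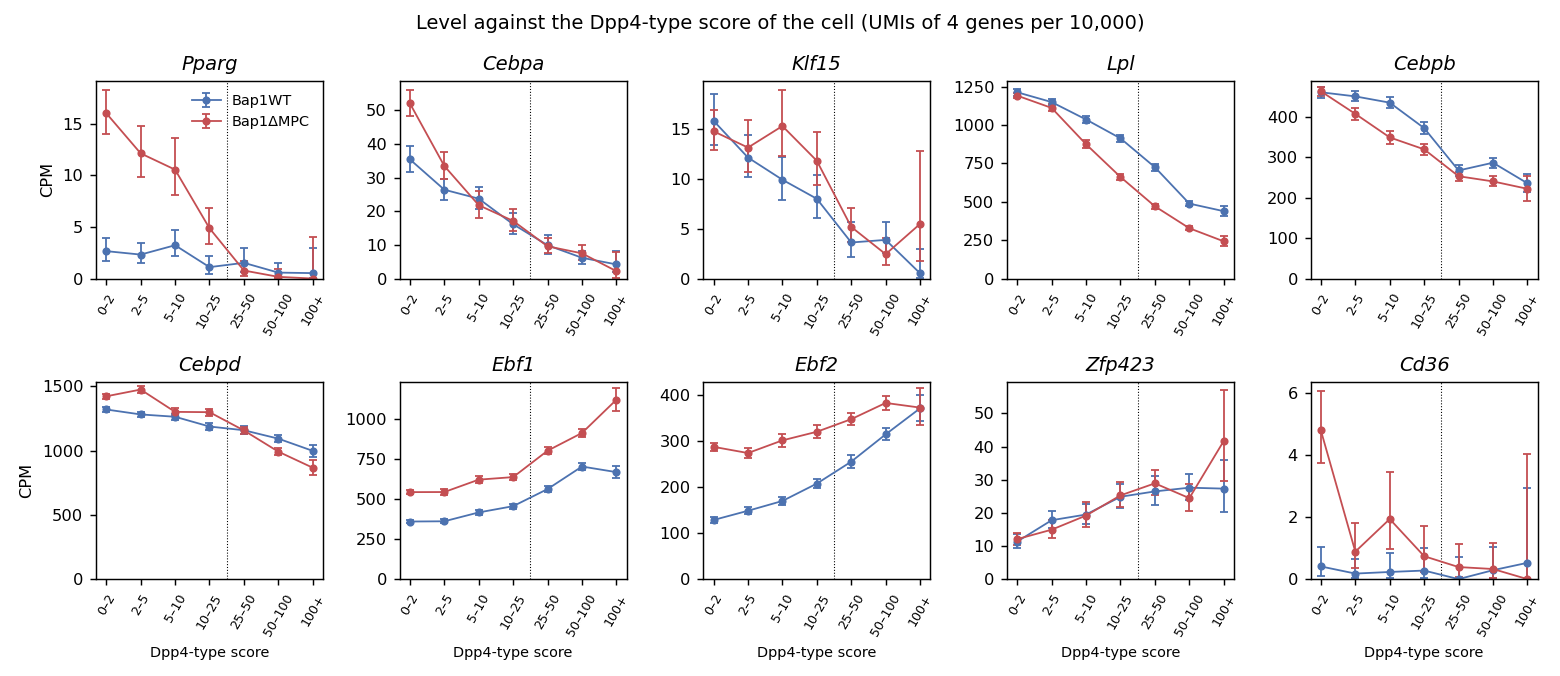
Level in CPM (linear axes from 0) of each gene in cells binned by their Dpp4-type score, the UMIs of *Pi16*, *Sema3c*, *Anxa3* and *Efemp1* per 10000, for the libraries labelled Bap1WT (blue) and Bap1ΔMPC (red). Bars are exact Poisson 95% intervals and the dotted line marks the threshold of 25. *Lpl*, *Cebpa* and *Cebpb* decline with the score, *Ebf1* and *Ebf2* increase, and *Pparg* in red declines from 16.0 CPM to 0.

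Cells with a *Pparg* UMI differed from the rest in the other members. In the library labelled Bap1ΔMPC, after thinning to 5000 UMIs, 134 cells had *Pparg*, of which 58.2% were Cxcl14-type and 0 were Dpp4-type, and 4034 cells had none, of which 22.3% were Cxcl14-type. *Cebpa* stood at 130 CPM in the former and 24.6 in the latter, *Lpl* at 2081 and 822, and *Cd36* at 22.4 and 1.09 CPM. *Cebpb* (428 and 366), *Ebf1* (727 and 666) and *Ebf2* (331 and 327) were closer, as was *Klf15* (17.9, 9.25 to 31.3, and 11.3), and *Zfp423* had 13.4 and 19.7 CPM. In the library labelled Bap1WT only 36 thinned cells had *Pparg*. They had more *Cebpa* (66.7 against 22.7 CPM) and *Lpl* (1689 against 1008) than the other 3947. *Klf15* stood at 38.9 CPM against 9.93, from only 7 UMIs (15.6 to 80.1). Of these 36 and 3947 cells, 36.1% and 13.8% were Cxcl14-type. Without thinning, *Klf15* stood at 12.4 CPM (6.95 to 20.5) in the 86 cells with *Pparg* and 9.38 in the rest. There *Cebpa* stood at 42.2 against 20.4 CPM and *Lpl* at 1400 against 938. Detection of *Pparg* and *Cebpa* in a same cell was seen in 9 and 41 thinned cells, 2.46 and 2.83 times the product of their shares. *Pparg* and *Cd36* were both seen in 6 thinned cells labelled Bap1ΔMPC, 7.78 times the product. Cells with *Pparg* thus had higher levels of *Cebpa* and *Lpl* in each library and were also more often of the Cxcl14-type, in which both are higher, and the part of cell type in these values was not tested. The 36 cells give wide intervals, and cells of 1 library are not replicates.

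**Figure D5:**
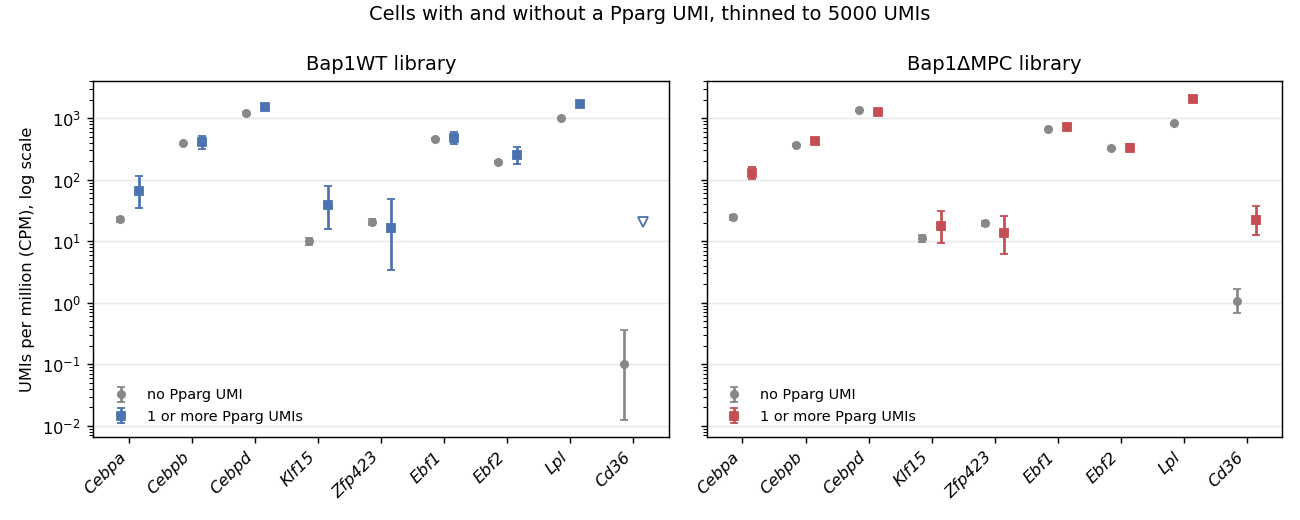
Level in CPM (log axis) of the other 9 genes in cells without a *Pparg* UMI (grey) and with at least 1 (colored) after thinning to 5000 UMIs, in the libraries labelled Bap1WT (left, 36 cells with *Pparg*) and Bap1ΔMPC (right, 134 cells with *Pparg*). Bars are exact Poisson 95% intervals and the open triangle is an upper bound for a count of 0. *Cebpa* and *Lpl* are higher in the cells with *Pparg* in both panels.

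Transcripts of mature fat cells went with *Pparg* in the library labelled Bap1ΔMPC. The 20 fat cell markers (among them *Adipoq*, *Plin1*, *Car3* and *Nnat*) summed to 4.74 CPM in the library labelled Bap1WT, with *Cidec*, *Lep*, *Orm1* and *Adig* at 0, and to 47.6 CPM in that labelled Bap1ΔMPC. In the latter they stood at 652 CPM in thinned cells with *Pparg* and 28.0 CPM in those without. In the library labelled Bap1WT no UMI of the 20 was counted in the 36 thinned cells with *Pparg*, and without thinning the 86 cells with *Pparg* had 12 (9.93 CPM, against 4.62 in the other cells). A UMI of *Adipoq*, *Plin1*, *Cidec*, *Lep* or *Retn* was present in 9 cells labelled Bap1WT and in 98 (2.24%) labelled Bap1ΔMPC, of which 48 were Cxcl14-type, 9 Dpp4-type and 41 of neither type. In those 98 cells *Pparg* stood at 105 CPM against 6.15 in the other cells of the library, *Cebpa* at 160 against 24.4, *Lpl* at 1918 against 806 and *Cd36* at 43.5 against 0.890. Without such cells the log2 ratio between the libraries was 1.63 for *Pparg* and 1.80 for *Cd36* over all cells. In Cxcl14-type cells it was 2.02 for *Pparg* and 0.54 for *Cebpa*. These marker transcripts are scarce, so similar cells without a captured UMI of them stayed in. The part of such cells in the ratios was not tested. The 46 cells labelled Bap1ΔMPC with *Cd36* had 108 CPM of *Pparg* against 7.45 in the rest and 1291 CPM of the fat cell markers against 33.0, whereas the 12 cells labelled Bap1WT with *Cd36* had 1 UMI of *Pparg* and 0 of those markers.

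Markers of other cell types also moved with some of these results. *Pecam1*, which encodes the CD31 that the sort excluded, had 49 UMIs in 30 of the 253 cells with *Pparg* in the unthinned library labelled Bap1ΔMPC (11.9%), against 3.39% of its other cells. In the library labelled Bap1WT *Pecam1* had 6 UMIs in 4 of the 86 cells with *Pparg* (4.65%), against 2.24% of its other cells. The 7 endothelial markers together had 28.8 CPM in the 253 cells labelled Bap1ΔMPC and 11.2 CPM in the rest. In the library labelled Bap1WT they had 14.9 CPM in the 86 cells with *Pparg* and 14.4 in the rest. Over all cells the list had 14.4 CPM in the library labelled Bap1WT and 12.4 in that labelled Bap1ΔMPC, in Dpp4-type cells 6.94 and 4.06, and in Cxcl14-type cells 8.95 and 18.8. Within it *Pecam1* had 113 and 241 UMIs over all cells, and *Kdr*, a receptor of endothelial cells, had 485 and 190. Median depth was 12247 UMIs in the 253 cells and 10932 in the rest. The 7 leukocyte markers had 5.82 and 22.0 CPM in Cxcl14-type cells, with *Ptprc*, which encodes the CD45 of the sort gate, and *Adgre1* at 0 in both libraries. Over all cells mural markers had 97.8 and 68.6 CPM, muscle markers 59.3 and 34.7 (*Pax7*, *Myf5* and *Myod1* at 0 in both), Schwann cell markers 21.2 and 67.3 (nearly all *S100b*, with *Sox10* at 0 in the library labelled Bap1ΔMPC), tendon markers 172 and 416, and cycling markers 41.3 and 75.2. Their part in the values of *Pparg*, *Cebpa*, *Lpl* and *Cd36* was not tested.

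The pathway around the members was counted from lists, for which the shares over all genes are again 3.45% higher and 3.18% lower. Of 27 further pro-adipogenic factors and cofactors 25 had enough UMIs, of which 2 were higher by more than 2-fold in the library labelled Bap1ΔMPC and 1 was lower, with a median log2 ratio of 0.17. The higher were *Ppargc1b*, a coactivator (79 and 171 UMIs, log2 ratio 1.16), and *Zfp467* (408 and 846 UMIs, 1.09), and the lower was *Klf5*, which acts upstream of *Pparg* (2285 and 1104 UMIs, -1.01). Of 24 anti-adipogenic regulators 21 had enough UMIs, with the pseudokinase genes *Trib3* higher (log2 ratio 1.46) and *Trib2* lower (-1.12). Among 14 glucocorticoid response genes, the class to which *Klf15* belongs, 1 was higher, *Lcn2* (log2 ratio 5.65), and 0 were lower. Of 20 immediate early and tissue dissociation genes 0 were higher and 1, *Hspa1b*, was lower. Over all cells the lists of regulators thus held few genes of that size in either direction. In Cxcl14-type cells 4 of 14 glucocorticoid response genes were higher, beside 5.67% of all genes, and 0 lower, beside 4.30%. There 3 of 25 pro-adipogenic factors and 1 of 20 anti-adipogenic regulators were higher and 0 lower. Of the 20 immediate early and tissue dissociation genes 1 was higher and 2 lower. In Dpp4-type cells these lists held 1, 2, 2 and 0 higher genes, in that order, and 0 lower, beside 3.43% and 3.63%.

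Lipid handling genes other than *Lpl* and *Cd36* included several that differed. Of 25 genes of lipid uptake and fatty acid transport 22 had enough UMIs. In the library labelled Bap1ΔMPC 4 were higher over all cells, beside 3.45% of all genes, and 1 was lower, beside 3.18%. *Fabp4*, the fatty acid binding protein of fat cells and capillaries, had 247 and 2352 UMIs (log2 ratio 3.29), of which the 98 cells with fat cell transcripts held 1539. Without such cells *Fabp4* stood at 4.65 and 16.8 CPM. *Fabp3* stood at a log2 ratio of 1.37, *Fabp5* at 1.01 and the transporter *Slc27a3* at 1.51, whereas *Slc27a1* stood at -1.03. In Cxcl14-type cells 6 of 22 were higher, beside 5.67% of all genes, and 0 lower, beside 4.30%. In Dpp4-type cells 3 were higher, beside 3.43%, and 1 lower, beside 3.63%. *Gpihbp1*, the capillary protein that anchors *Lpl*, had 11 and 6 UMIs. Of 28 genes of lipid synthesis, storage and lipolysis 25 had enough UMIs and 0 passed 2-fold in either direction, and the most abundant, *Scd2* and *Plin3*, had log2 ratios of 0.33 and 0.26. Of the 20 fat cell markers only 4 had enough UMIs, all 4 higher, which the filter favors since their UMIs came mostly from 1 library. They included *Nnat* (9 and 315 UMIs), *Car3* (62 and 1104 UMIs) and *Tshr*.

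Markers of committed preadipocytes were counted between types and libraries. Of 12 such genes, among them the *Col15a1* already used to check the types, 9 were higher by more than 2-fold in Cxcl14-type than in Dpp4-type cells labelled Bap1WT, beside 9.18% of all genes, and 10 in those labelled Bap1ΔMPC, beside 10.0%. Between the libraries 1 was higher over all cells, *Agt* (log2 ratio 1.57), beside 3.45% of all genes. Lower were 2, *Clec11a* (-1.59) and *Bmp4* (-1.29), beside 3.18%. In Dpp4-type cells 5 of 11 were lower, beside 3.63% of all genes, and 0 were higher, beside 3.43%. In Cxcl14-type cells 2 of 12 were lower, beside 4.30%, and 0 were higher, beside 5.67%. Of 6 FAP markers 0 were higher over all cells, beside 3.45% of all genes. Lower were 2, *Osr1* (-1.61) and *Col1a1* (-1.11), beside 3.18%.

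Across single cells the abundant members varied with different genes. Likeness was measured as Pearson's r over 3983 and 4168 thinned cells among 9713 genes, and the points share libraries and depth, so it is given as a description. *Lpl* was most like *Col4a1* (r of 0.47 in the library labelled Bap1WT and 0.44 in the other), *Col4a2* (0.39 and 0.37) and *Cxcl14* itself (0.36 and 0.38). *Cebpd* was most like *Junb* (0.39 and 0.35), *Mt1* (0.40 and 0.34) and *Socs3* (0.36 and 0.32), and *Cebpb* also had *Junb* (0.31 and 0.27), with *Btg2* and *Mt1*, as its nearest. *Ebf1* was most like *Adamts5* (0.30 and 0.28), *Anxa3*, a gene of the Dpp4-type rule, and *Pcsk6*. *Ebf2* had *Scara5* (0.18 and 0.15), *Pparg* had *Apoe* (0.11 and 0.19) and *Cebpa* had *Igfbp7* (0.13 and 0.17) as the nearest. For these genes, and for *Klf15*, *Zfp423* and *Cd36*, r was too weak to be read.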

How the data were processed

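Single-cell 3′ libraries were made with the 10x Genomics Chromium v3.1 kit. Per the labels, the authors used bcl2fastq 2.20.0, FastQC 0.11.7, Cell Ranger 3.1.0 (mm10), R 3.6.1 and Seurat 3.2.1, and deposited 1 table of UMI counts per library after removing low-quality cells, doublets and cells that were not FAPs, with thresholds that are not given in the sources used here. The counts as deposited were summed over cells. Ratios and shares were given exact Clopper-Pearson intervals (for ratios, conditional on the summed UMIs) and levels exact Poisson intervals. Thinning to 5000 UMIs left out 120 and 210 shallower cells. No doublet caller was run. The study's rule for differing genes uses p-values over cells, so size alone was used. Named genes were the members, *Bap1* and genes planned as checks of the cell types. Of each list, up to 3 genes over 2-fold in each direction with at least 100 UMIs were named (failing those, the 2 most abundant). The 3 genes most like each member, among genes in at least 2% of cells, were also named. So were markers with the most UMIs or at 0. *Fabp5*, *Gpihbp1* and genes that describe cells with fat cell transcripts were chosen after their values were seen. Members and lists were chosen with earlier results of these data known. Alternatives were scaling by TMM (edgeR 4.0.16 in R 4.3.3, on the deposited counts) or median-of-ratios factors, filters, fold limits, type thresholds and cells left out. Python 3.11.15, numpy 2.4.6, scipy 1.17.1 and pandas 2.3.3 were used, and the calculations were tested on simulated data.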

Additional observations from a re-analysis of the deposited data

Results flagged for a closer look

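For 4 members the ratio between the libraries had opposite directions in the 2 cell types. The difference between the types was not tested, since each genotype has 1 library. *Pparg* had a log2 ratio (library labelled Bap1ΔMPC over that labelled Bap1WT) of -0.96 in Dpp4-type cells, from 13 and 7 UMIs, and of 2.46 in Cxcl14-type cells, from 27 and 249 UMIs. *Cebpd* had -0.045 and 0.15, and it was the only member of the 4 whose counting intervals lay on opposite sides of 0. Over the alternatives its ratio stayed between -0.12 and -0.017 in Dpp4-type cells and between 0.082 and 0.19 in Cxcl14-type cells. *Zfp423* had 0.037 and -0.12, and *Klf15* had 0.29 and -0.094, with intervals that included 0 in both types.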

How the results depend on the processing

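No called ratio changed sign under any alternative run. The count of members over 2-fold in Dpp4-type cells was 1 (*Pparg*, lower) instead of 0 with TMM factors, median-of-ratios factors, a fold limit of 1.5 or the mean over cells. In Cxcl14-type cells it was 1 (*Pparg*) instead of 2 with TMM factors, median-of-ratios factors, a fold limit of 3, cells thinned to 5000 UMIs, *Cxcl14* of at least 2 per 10000 or every cell below the Dpp4-type threshold. Over all cells it was 2 instead of 1 with no filter (*Pparg* and *Cd36*) or a fold limit of 1.5 (*Pparg* and *Ebf2*), and between the types that limit gave 8 and 7 instead of 4. Ratios of *Pparg* ranged from 1.63 to 2.13 over all cells and from 2.02 to 2.72 in Cxcl14-type cells, but from -2.79 to 0.22 in Dpp4-type cells. Small ratios that crossed 0 under some alternative were those of *Cebpd* over all cells, of *Cebpa*, *Zfp423* and *Cd36* in Dpp4-type cells and of *Klf15* and *Zfp423* in Cxcl14-type cells. Scaling moved the median of all genes from 0.097 to 0.00, and genes over 2-fold from 406 higher and 374 lower to 344 and 443. Depth limits *Cd36* and, in Dpp4-type cells, *Pparg*. No paired analysis was possible because there was a single library of each genotype and no test was made.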
